A study of Bos taurus with 16 samples.

Results

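Endometrium, the inner lining of the uterus, was compared between day 10 and day 5 after timed artificial insemination in Holstein virgin heifers. The comparison took the 8 libraries that the labels title day 10 and day 5, 4 of each, out of 16 libraries in the series. The other 8 came from days 14 and 18 and are used here only for levels. All heifers went through the same synchronisation, a 5-day Co-synch schedule of a GnRH analog, a vaginal progesterone device and the prostaglandin analog cloprostenol, and were then inseminated with Holstein semen. Animals were assigned to their day at random, per the labels, and both days carry the same hormonal pre-treatment. The labels give no batch, so a difference in handling between the days could not be told apart from time. Whether an embryo was found is not given animal by animal. RNA was taken from biopsies, which hold epithelium, glands, stroma, vessels and immune cells together. In such bulk samples fewer cells of a type and less RNA per cell cannot be told apart.

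The step from day 5 to day 10 runs from the early to the middle luteal phase. After ovulation the corpus luteum forms in the ovary and secretes progesterone, which rises over these days. Progesterone acts on the endometrium and changes what its glands secrete, and this fluid, the histotroph, feeds the embryo before it attaches. The study's title places the comparison in that setting, as a question of how the endometrium's output shifts over the cycle and with an early embryo in the uterus.

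The files identify genes only by Ensembl IDs, and they do not pair these with symbols. The table of RefSeq genes used here holds 0 Ensembl IDs, so none of the 27607 IDs could be looked up in it. For that reason genes are given by ID, nothing is said of their function or position, and the labelled tissue was not checked against marker genes. Gene totals of the 8 libraries ran from 19115995 to 21114730 reads, and 15656 IDs had enough reads to be tested. Levels are in CPM, a read count relative to the scaled size of its library, and correlations and differences are on the log2 scale.

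Day 5 replicate 3 stood apart before any test. Its Pearson correlation across genes was 0.848 to 0.871 with the other 3 day 5 libraries, which correlated with each other at 0.958 to 0.971. With the day 10 libraries it correlated at 0.828 to 0.852. Its 100 most abundant genes took 29.6% of its gene reads, against 17.5% to 20.8% in the other day 5 libraries and 15.6% to 18.8% on day 10. It enters the comparison unless stated. Day 10 libraries correlated with each other at 0.951 to 0.977. With the day 5 libraries other than replicate 3 they correlated at 0.913 to 0.955, so these ranges overlap. The median within-day SD of a gene was 0.423 log2 CPM on day 5 and 0.267 on day 10. Without replicate 3 the day 5 value was 0.235. Day 5 had the larger SD for 71.9% of the genes tested with that library and for 42.9% without it.

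Between day 5 and day 10, 116 genes rose and 114 fell, which is 0.741% and 0.728% of the 15656 tested, or 1.47% together (edgeR's quasi-likelihood test, Benjamini-Hochberg adjusted p under 0.05). Of the risen genes 81 changed at least 2-fold, 37 at least 4-fold and 16 at least 8-fold, and of the fallen genes 73, 38 and 22. Of all genes tested 1890 had a fitted change of at least 2-fold, 487 of at least 4-fold and 166 of at least 8-fold, so most changes of these sizes were not called. The median log2 fold change was 1.37 for risen and -1.27 for fallen genes, which were chosen by direction, and -0.02 over all genes tested. For each of the 230 called genes, all 4 libraries of one day lay above all 4 of the other. That was also so for 2434 of all genes tested, 15.5%, with 1169 higher on day 10 (7.47%) and 1265 lower (8.08%), so most genes without overlap between the days missed the threshold.

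Most calls passed narrowly. The smallest adjusted p was 0.00934 by edgeR. It was above 0.04 for 65 risen and 74 fallen genes and under 0.02 for 9 and 8. Before adjustment 3529 genes (22.5%) had a p under 0.05, 1538 of them with the higher level on day 10 and 1991 with the lower. Changes were found at every level of abundance. When the tested genes were ranked by mean level and parted into 4 bins of 3914, 20 rose and 23 fell in the lowest bin. In the next it was 19 and 25, then 36 and 36, and 41 and 30 in the bin of the most abundant genes.

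**Figure D1:**
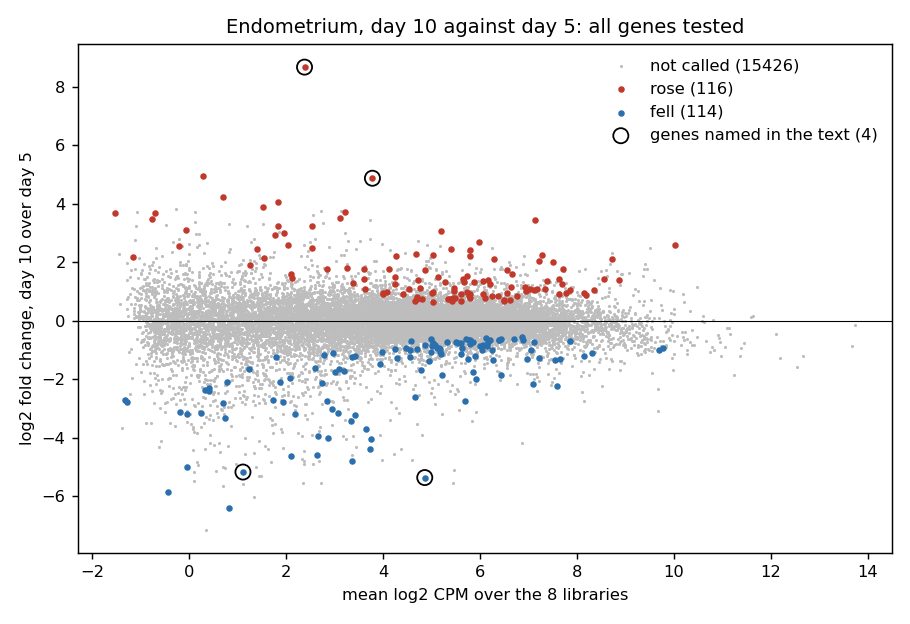
Log2 fold change of day 10 over day 5 (vertical axis) against the mean log2 CPM over the 8 libraries (horizontal axis) for all 15656 genes tested. The 116 risen genes (red) and 114 fallen genes (blue) lie at all levels of abundance, among 15426 genes that were not called (grey), and circles mark the 4 genes named in the text.

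The number of calls depended on single libraries. Without day 5 replicate 3 edgeR called 597 risen and 783 fallen genes, 8.68% of those tested, and all 230 genes were among these 1380. Without any other library the total fell. It was 0 without day 5 replicate 1 or day 10 replicate 4, with 2796 and 2569 genes under 0.05 before adjustment. It was 11 and 43 without day 5 replicates 2 and 4, and 14, 34 and 15 without day 10 replicates 1, 2 and 3. Same-numbered libraries of both days deviated from their day means together, at correlations of 0.121 to 0.329, though day 5 replicate 4 correlated more with another day 10 library (0.289) than with its own number (0.121). When edgeR took the replicate number as a block, it called 0 risen and 3 fallen genes (0.0192%). Before adjustment 3535 genes (22.6%) had an edgeR p under 0.05 with the block, against 3529 (22.5%) without it. DESeq2 called 966 and 1291 (13.6% of the genes it gave an adjusted p), limma-voom with library weights called 1398 and 1555 (18.9%), and all 230 genes were among the calls of each.

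**Figure D2:**
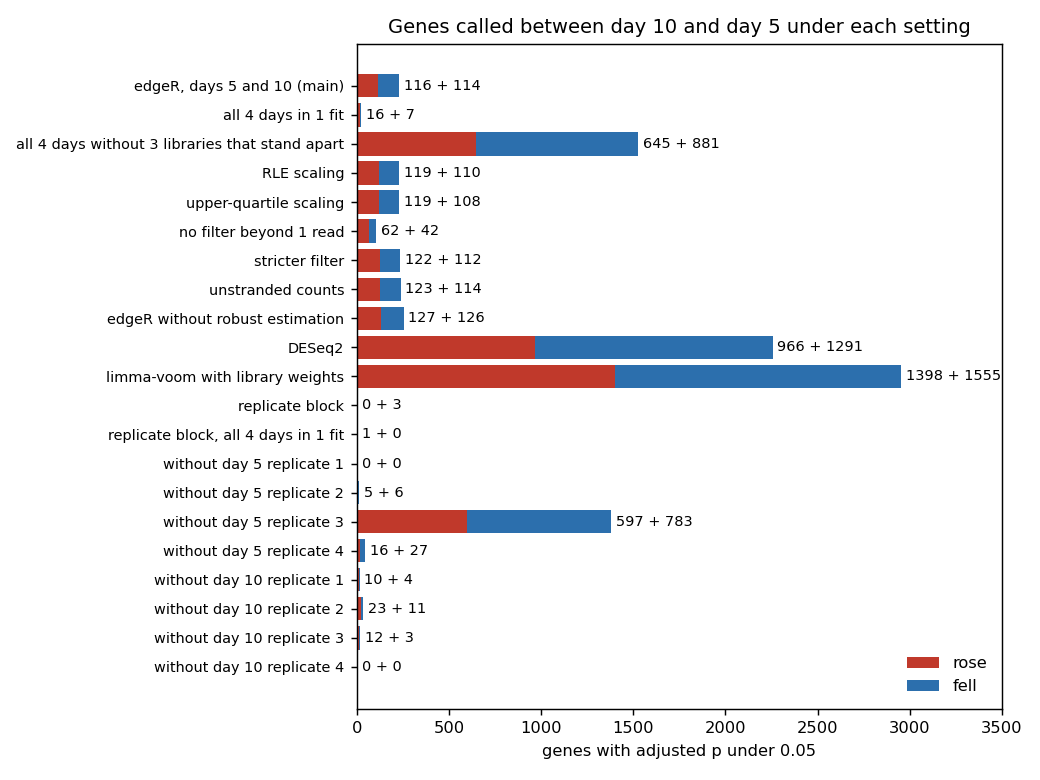
Number of genes called between day 10 and day 5 (horizontal axis) under the main setting and each of 20 alternatives (vertical axis), with risen genes in red and fallen genes in blue and both numbers beside each bar. Totals run from 0, without day 5 replicate 1 or day 10 replicate 4, to 2953 with limma-voom.

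The risen gene with the largest change was ENSBTAG00000021118. It was close to absent on day 5, at 0.513, 0.184, 0.280 and 0.0944 CPM in replicates 1 to 4, which together held 20 reads. On day 10 it was at 136, 15.3, 130 and 159 CPM. Replicate 2 of day 10 was far below the other 3, yet it was above every day 5 library. The mean went from 0.268 ± 0.180 to 110 ± 64.3 CPM (SD, n = 4), which edgeR fitted as 8.66 ± 0.91 on the log2 scale (SE, adjusted p = 0.0169). This took the gene from a mean level above 0.147% of the tested genes on day 5 to one above 86.7% of them on day 10. With the replicate block the log2 fold change was 8.49 and the adjusted p 0.0557 by edgeR. The call was also lost without day 5 replicate 1 or 2 or day 10 replicate 4, at adjusted p of 0.0698, 0.0661 and 0.0654. On day 14 the gene was at 117, 104, 81.7 and 16.7 CPM, and on day 18 at 12, 0, 0.314 and 1.91 CPM.

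ENSBTAG00000020391 rose as well, from a low level that was measurable in each day 5 library. It was at 1.90, 2.72, 1.19 and 5.90 CPM in day 5 replicates 1 to 4 and at 41.3, 45.6, 167 and 92.0 CPM on day 10. The lowest day 10 library lay well above the highest of day 5. The mean went from 2.93 ± 2.08 to 86.6 ± 58.5 CPM (SD, n = 4), fitted as 4.87 ± 0.67 on the log2 scale (SE, edgeR adjusted p = 0.0311). The fold was 5.46 on the log2 scale without day 5 replicate 4, the highest of that day, and the adjusted p 0.0443 by edgeR. With the replicate block it was 4.77 (adjusted p = 0.0758 by edgeR). The call was lost without day 5 replicate 1 or 2 (adjusted p 0.116 and 0.0896 by edgeR) and without any 1 day 10 library (0.0547 to 0.128). Levels on day 14 were higher still by mean, 221 ± 94.0 CPM (SD, n = 4), at 204, 127, 352 and 202 CPM. On day 18 the 4 libraries parted, with 125 and 476 CPM in replicates 1 and 4 and 0.232 and 2.55 CPM in replicates 2 and 3.

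Among the fallen genes ENSBTAG00000009014 had the largest change under the rule for naming genes. On day 5 it was abundant but uneven, at 504, 364, 51.2 and 143 CPM in replicates 1 to 4. On day 10 it was at 14.9, 7.60, 1.75 and 1.65 CPM. Day 5 replicate 3 was the lowest of its day and still above the highest day 10 library. The mean went from 266 ± 206 to 6.47 ± 6.26 CPM (SD, n = 4), fitted as -5.36 ± 1.02 on the log2 scale (SE, edgeR adjusted p = 0.0487). It was 1 of the 3 genes still called with the replicate block, at -5.48 (adjusted p = 0.0426 by edgeR). In the fit of all 4 days the call was lost both without the block (adjusted p = 0.102 by edgeR) and with it (0.127). The fold was -6.17 on the log2 scale without day 10 replicate 1 (adjusted p = 0.0604 by edgeR). The call was lost when any 1 library other than day 5 replicate 3 was left out, with adjusted p up to 0.160. On day 14 the gene stayed between 1.31 and 5.69 CPM. On day 18 it was at 1.37 and 18.1 CPM in replicates 1 and 4 and at 230 and 164 CPM in replicates 2 and 3.

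ENSBTAG00000009812 fell to near absence from a mean level above 41.7% of the tested genes on day 5. It was at 8.77, 11.4, 41.2 and 1.70 CPM in day 5 replicates 1 to 4 and at 0.235, 0.715, 0.438 and 0.330 CPM on day 10, where the 4 libraries together held 37 reads. Here day 5 replicate 3 was the highest of its day. The mean went from 15.8 ± 17.5 to 0.430 ± 0.208 CPM (SD, n = 4), fitted as -5.17 ± 0.98 on the log2 scale (SE, edgeR adjusted p = 0.0487). Without day 5 replicate 3 it was -4.06 (adjusted p = 0.0177 by edgeR), and with the replicate block -4.58 (adjusted p = 0.0827 by edgeR). The call was lost without day 5 replicate 1 or 2 (adjusted p 0.122 and 0.0960 by edgeR) and without any 1 day 10 library (0.0751 to 0.169). On day 14 the gene was at 0.463 to 1.07 CPM and on day 18 at 0.228, 8.45, 3.67 and 2.64 CPM.

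**Figure D3:**
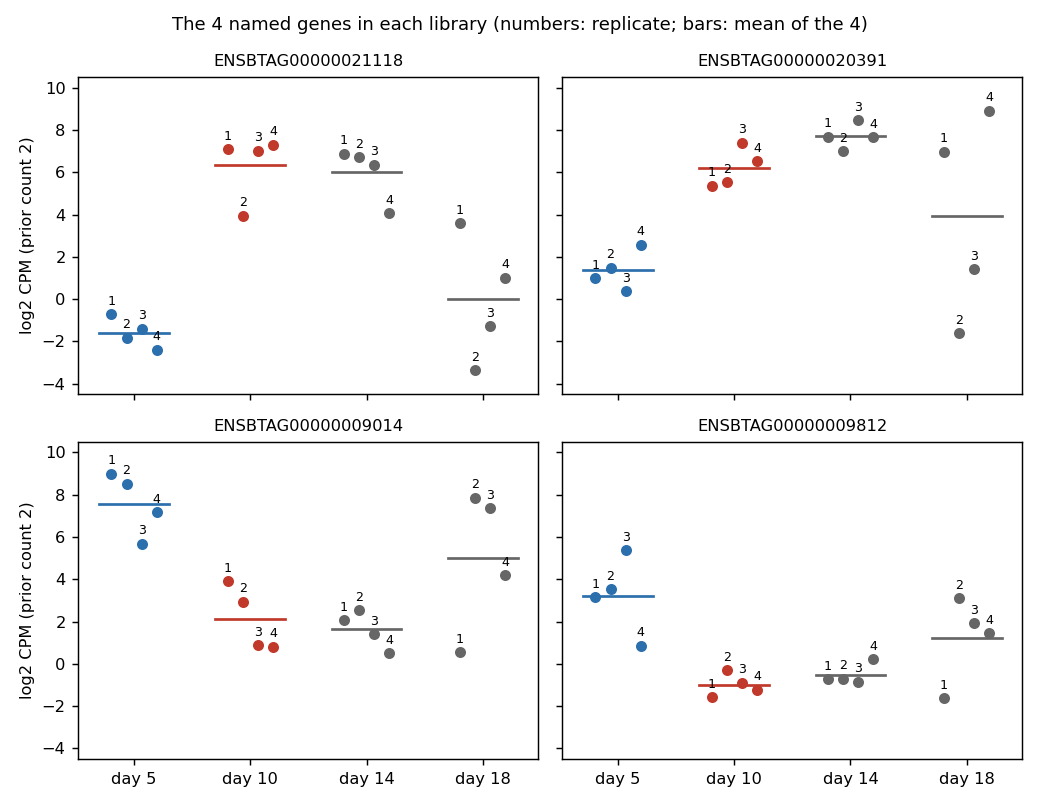
Log2 CPM (vertical axis, prior count 2) of the 4 named genes in each library of days 5, 10, 14 and 18 (horizontal axis); each point is 1 library with its replicate number, and bars are the mean of 4. Day 5 (blue) and day 10 (red) do not overlap for any of the 4 genes, and on day 18 replicates 2 and 3 lie on the day 5 side of replicate 1 for every gene.

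Few genes passed a mark for near absence on one day and presence on the other, and their number depends on the mark. With a mark of 1 CPM, which was set after the data were examined, 23 genes lay under it in each day 5 library and at or above it in each day 10 library, and 24 did the reverse. Of these, 7 and 10 were called, 36.2% together, against 9.45% of all genes without overlap between the days. The mark itself keeps the days apart, so these shares are a description. Without day 5 replicate 3 the numbers were 37 and 44. With a wider gap, under 0.5 CPM on one day and at least 2 CPM on the other, they were 0 and 1. ENSBTAG00000021118 was not counted there, because day 5 replicate 1 held 0.513 CPM of it.

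Each of the 8 libraries was then placed between the days on genes it had no part in choosing. The fit was repeated without the library, the 100 genes per direction with the smallest p were taken, and the mean of the remaining day 5 libraries was set to 0 and that of day 10 to 1. The day 5 libraries lay at 0.111, 0.230, 0.188 and 0.367 in replicates 1 to 4 and the day 10 libraries at 0.730, 0.769, 0.939 and 1.04. The days did not overlap, though each value has its own gene set and scale. Day 5 replicates 3 and 4 were placed differently by their risen and fallen genes. On the risen genes replicate 3 lay at -0.148, farther from day 10 than the rest of day 5, and on the fallen genes at 0.490, about midway. Replicate 4 lay at 0.182 and 0.478. Both positions of replicate 3 mean lower levels, on average, than in the rest of day 5. The median over all genes tested was 4.33 log2 CPM in replicate 3, against 4.43 to 4.45 in the other day 5 libraries. Whether that offset enters the positions was not tested. For replicate 3 the genes called without it can be counted as well. Among the 597 risen genes it was nearer to the day 10 mean for 209, or 35.0%, and of 783 fallen genes for 381, or 48.7%. Its level was under the lowest other day 5 library for 228 of the risen genes and over the highest for 187 of the fallen genes.

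The genes called between days 5 and 10 were followed in the libraries of days 14 and 18, which took no part in the fit. The median level of the 116 risen genes was 4.69 to 4.82 log2 CPM in the day 5 libraries and 5.74 to 6.10 on day 10, as they were chosen to differ. On day 14 it was 5.82 to 6.24. On day 18 it was 5.93 and 5.79 in replicates 1 and 4 but 4.76 and 4.75 in replicates 2 and 3, within the range of day 5. The median of the 114 fallen genes was 5.37 to 5.66 on day 5 and 4.15 to 4.46 on day 10. It was 4.09 to 4.42 on day 14, and on day 18 it was 4.20 and 4.46 in replicates 1 and 4 against 5.95 and 5.41 in replicates 2 and 3. Over all genes tested the median stayed between 4.33 and 4.49 in the 16 libraries. By day mean, the highest level of a risen gene came on day 10 in 67 cases, in 48 it came on day 14 and in 1 on day 18. For fallen genes the lowest level came on day 10 in 51 cases, in 62 it came on day 14 and in 1 on day 18. The genes were chosen by their levels on days 5 and 10, which favours day 10 in these counts. A day 18 mean joins replicates that parted, and the part of this in the few peaks or lows on day 18 was not tested. The lowest level of a risen gene came on day 18 in 13 cases, against 102 on day 5. For fallen genes the highest level came on day 18 in 9 cases, against 105 on day 5. The choice of genes favours day 5 in these 2 counts. These are levels without a test. Day 5 replicate 3 and day 18 replicates 2 and 3 stand apart from their days, and whether a label was exchanged among them was not tested. The levels of days 5 and 18 are those of the libraries so labelled.

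**Figure D4:**
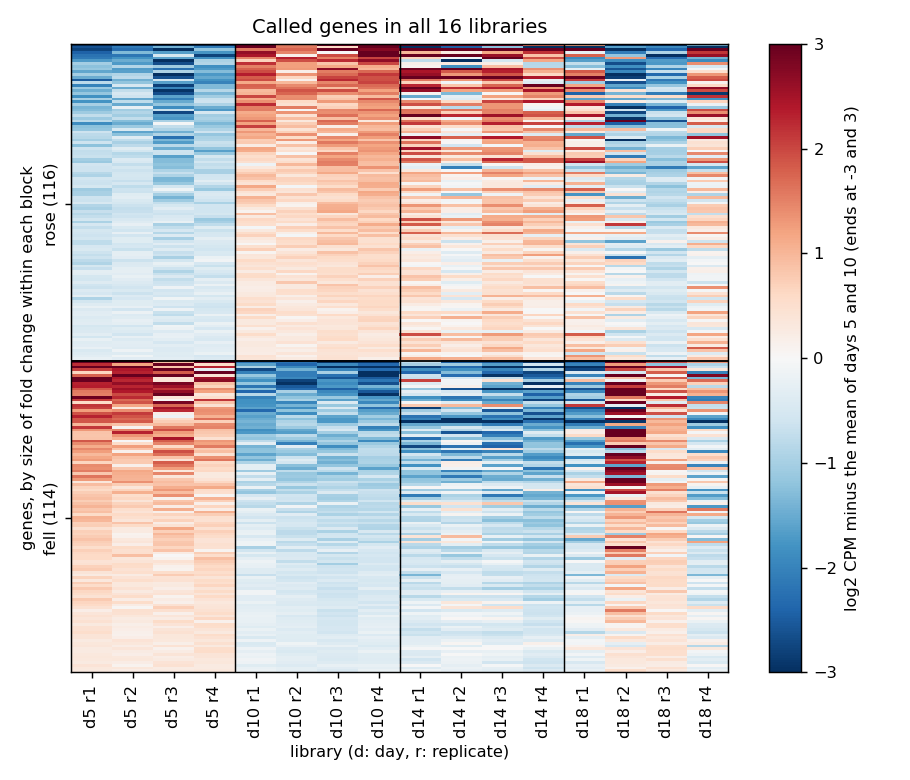
Log2 CPM of the 230 called genes (rows, risen above the line and fallen below it) in all 16 libraries (columns), as the difference from the gene's mean over days 5 and 10, with colours ending at -3 and 3. The split between days 5 and 10 is how the rows were chosen. By the median of each block, day 14 columns lie near day 10, and day 18 replicates 2 and 3 near day 5. Single genes depart from this. A risen gene was at -3.10, -2.44, -1.25 and -3.66 in day 14 replicates 1 to 4. In day 18 replicate 2 a fallen gene was at -3.57 and another at 5.57.

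Reads on the strand opposite to the annotated gene made up 1.42% to 1.69% of stranded gene reads in the 8 libraries. Counted by gene, they were enough to test 2620 IDs in the same way, and 36 rose and 15 fell, 1.95% together (edgeR's quasi-likelihood test, adjusted p under 0.05, smallest 0.00337). Of these 51 IDs, 4 (7.84%) were also among the 230 called on their own strand, where 30 of the 2309 IDs tested on both strands (1.30%) were called. The bases of these shares differ, as the 51 were not limited to IDs tested on both strands. This comparison was added after the data were examined, and which transcripts these reads come from was not tested.

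The share of reads that fell in no gene feature also differed between the days. It was 23.5%, 26.3%, 23.1% and 25.6% in day 5 replicates 1 to 4 and 27.6%, 30.6%, 30.7% and 29.8% on day 10, of all reads counted in genes, as ambiguous or without a feature. The lowest day 10 library was above the highest of day 5. The means were 24.6% ± 1.56 and 29.7% ± 1.44 (SD, n = 4), a difference of 5.05 percentage points (two-sided exact permutation p = 0.0286, the smallest that 4 against 4 can give). Adjusted over the 7 library measures compared, p was 0.0667. Those 7 include this share from both stranded and unstranded counts, which nearly coincide, so they are not independent measures. Without day 5 replicate 3 the difference was 4.54 points (exact permutation p = 0.0571, the smallest that 3 against 4 can give). The share of unmapped reads went the other way, 8.40% to 9.42% on day 5 and 7.47% to 8.37% on day 10 (exact permutation p = 0.0286, adjusted 0.0667). The 10 most abundant genes took 6.51% to 10.4% of gene reads on day 5 and 4.29% to 7.31% on day 10 (exact permutation p = 0.0571, adjusted 0.0999). On the other days the share without a feature was 27.6% to 33.4% on day 14, 30.4% and 30.7% in day 18 replicates 1 and 4, and 24.6% and 24.7% in day 18 replicates 2 and 3. The 6 libraries lowest in this share, those of day 5 and day 18 replicates 2 and 3, were also the 6 with the lowest median level of the risen genes. For the day 5 libraries this follows from how the risen genes were chosen, so only the day 18 libraries were free to differ. The part of this share in the gene calls was not tested.

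**Figure D5:**
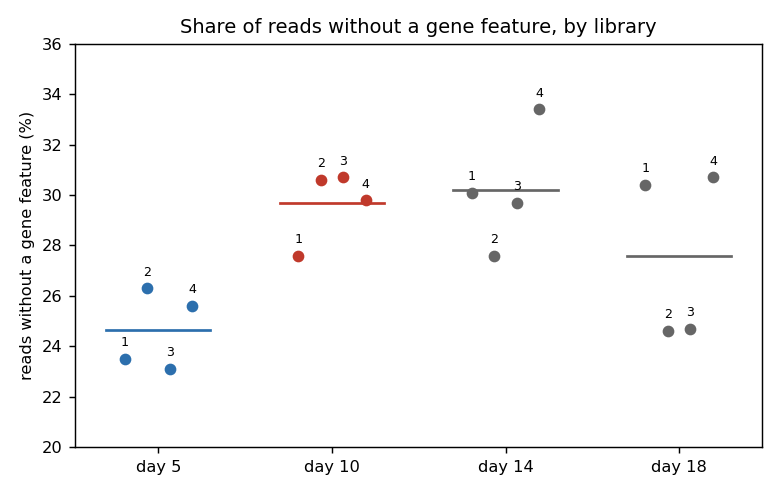
Reads without a gene feature as a percentage of reads counted in genes, as ambiguous or without a feature (vertical axis, which starts at 20), in each library of the 4 days; points carry the replicate number and bars are means of 4. Day 5 libraries lie at 23.1% to 26.3% and day 10 libraries at 27.6% to 30.7%, and day 18 replicates 2 and 3 lie with day 5.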

How the data were processed

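Each library has 1 table, in which the authors deposited raw counts of reads per gene as the aligner STAR writes them. The submitters' processing notes name STAR, FastQC and edgeR without a version. The genome build is not given in the sources used here, and neither is the annotation. Libraries were poly(A)-captured and stranded, per the labels' protocols. The counts of the matching strand were used. The 4 summary lines per table name no gene and stayed out of sizes and tests, and 23.1% to 30.7% of reads in genes, ambiguous or without a feature had no gene feature. The tables list 0 multimapping reads, so near-identical genes have uncertain values.

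Groups came from the labels, which give no batch. Genes were filtered with filterByExpr by day, scaled by TMM and fitted with edgeR 4.0.16 (quasi-likelihood, robust; R 4.3.3) on the 8 libraries of days 5 and 10, since the spread of day 18 would otherwise enter the error. That fit was chosen when the count of calls with all 4 days in 1 fit was known. DESeq2 1.42.0 and limma 3.58.1 were alternatives. CPM levels used 1 TMM scaling of all 16 libraries, and log2 CPM a prior count of 2. An SE is the fold change divided by the square root of F. The code was tested on simulated data. Same-numbered libraries of the 2 days deviated from their means with correlations of 0.329, 0.200, 0.161 and 0.121 in replicates 1 to 4. No label says that a number is shared, so this pairing comes from the data alone, and it was judged with blocked counts already known. All within-day pairs of libraries differed by more than sampling noise, with a chi-square of at least 38.1 times its degrees of freedom.

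Named genes were the 2 largest changes per direction that passed 0.05 after adjustment, averaged 1 log2 CPM or more and did not overlap between days. The members and lists were chosen with earlier results of these data known. The 32 gene lists, the marker lists and the promoter search were not used, because the table of RefSeq genes of ARS-UCD2.0 holds 0 Ensembl IDs and so gives no symbol for any ID of the files.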

Additional observations from a re-analysis of the deposited data

Results flagged for a closer look

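Of 24 groups of 4 libraries examined, 3 held a library far from the other 3 of its day. Chance flags about 1 in 20 groups when the groups are independent. These were not, as the measures share libraries and the named genes were chosen from these data. The number of flags therefore cannot be set against that rate. Day 10 replicate 2 had 3.95 log2 CPM of ENSBTAG00000021118, against 7.02 to 7.31 in the other day 10 libraries. Day 5 replicate 3 had 9.42% unmapped reads, against 8.40% to 8.46% in the other day 5 libraries. The same library had a mean correlation of 0.850 with the other 7 libraries, against 0.929 to 0.939 for the rest of day 5. Reads without a gene feature, which no gene comparison uses, made up 27.6% or more of each day 10 library and 23.1% to 26.3% of the day 5 libraries.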

How the results depend on the processing

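The 230 calls (116 risen, 114 fallen) stayed within 1.5 times under RLE scaling, upper-quartile scaling, the stricter filter, unstranded counts and edgeR without robust estimation. They were 23 (16 and 7) with all 4 days in 1 fit, of which 22 were among the 230, and 1526 (645 and 881) when that fit left out day 5 replicate 3 and day 18 replicates 2 and 3. With no filter beyond 1 read they were 104 (62 and 42), with DESeq2 2257 (966 and 1291) and with limma-voom 2953 (1398 and 1555). With the replicate block they were 3 (0 and 3), and 1 (1 and 0) with the block in a fit of all 4 days. Leaving out 1 of the 8 libraries gave 0 to 1380 calls, 0 to 597 risen and 0 to 783 fallen, and the cause of these shifts was not tested. Risen genes outnumbered fallen ones in 11 of 20 alternatives and fell short in 7, and 2 called none. At an unadjusted p under 0.05 fallen genes outnumbered risen ones in all 20. All 4 named genes kept their direction in all 20. Their calls were lost in 5, 9, 10 and 10 of them for ENSBTAG00000021118, ENSBTAG00000020391, ENSBTAG00000009014 and ENSBTAG00000009812, and their adjusted p reached 0.0828, 0.168, 0.160 and 0.169. Limma-voom gave ENSBTAG00000009014 a log2 fold change of -6.63 and ENSBTAG00000009812 one of -4.18. Values near 1 CPM rest on about 20 reads per library. Differences among levels below that rest on few reads, and how well they were resolved was not tested.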
